A study of Mus musculus with 16 samples.

Results

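Complement components and receptors were followed in spinal cord RNA as 9 genes, taken by gene symbol from the 24411 genes of the deposited tables: the C1q chains C1qa, C1qb and C1qc, the components C3 and C4b, the receptors C3ar1 and C5ar1, and the regulators Serping1 and Cd59a. RNA was sequenced from 16 female C57BL/6J mice, 1 mouse per library, as a 5 mm cord segment at the injury site or the matching level. The SCI + Vehicle group (n = 7) and the SCI + Atorvastatin group (n = 7) received a 0.25 mm lateral compression of the thoracic cord at 12 wk of age, then daily vehicle or atorvastatin at 10 mg/kg from 2 wk after injury for 4 wk, and their cords were taken 6 wk after injury. The Uninjured Control group (n = 2) consisted of mice that the labels give as 12 wk old and the study's methods as slightly older at harvest. No surgery and no injections are described for them, so injury, surgery, injections and the later age of the SCI mice cannot be told apart in a comparison with it. All mice were saline-perfused. The comparisons ask how complement transcripts differ in the chronically injured cord and whether delayed atorvastatin, a statin that inhibits cholesterol synthesis, moves them.

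Complement is a cascade of proteins that tags surfaces for removal. C1q recognises a target and starts the classical pathway, in which C4 and then C3 are cleaved. C3 fragments mark the surface for phagocytes, while the small fragments C3a and C5a signal through the receptors encoded by C3ar1 and C5ar1. Serping1 encodes the C1 inhibitor, which blocks the proteases of the C1 complex, and Cd59a encodes a membrane protein that blocks the terminal lytic complex. In the central nervous system microglia are the main makers of C1q, astrocytes and myeloid cells make C3 and C4, and C1q and C3 take part in the removal of synapses by microglia. Outside it, the liver makes most of the complement of plasma.

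The C1q chain genes lie side by side on chromosome 4 of GRCm38 on the minus strand (C1qb chr4:136880129-136886187, C1qc chr4:136889804-136893065 and C1qa chr4:136895917-136898803), within 18675 bases, while C3 lies on chromosome 17 (chr17:57203970-57228136). The 200 bases upstream of the RefSeq start are shown for C1qb (chr4:136886201-136886400) and for C3 (chr17:57228137-57228336), both on the minus strand of GRCm38.p6. Any link of these sequences to the levels below was not tested. Capitals mark the letters GAGGAA, the core recognised by the myeloid factor PU.1, in C1qb, and TTNCNNAA, a loose form of the C/EBP element, in C3, both searched on either strand.
C1qb: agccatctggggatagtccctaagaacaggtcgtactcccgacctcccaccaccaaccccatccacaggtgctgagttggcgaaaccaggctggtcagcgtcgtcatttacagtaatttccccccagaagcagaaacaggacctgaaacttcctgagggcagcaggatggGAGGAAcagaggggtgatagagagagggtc
C3: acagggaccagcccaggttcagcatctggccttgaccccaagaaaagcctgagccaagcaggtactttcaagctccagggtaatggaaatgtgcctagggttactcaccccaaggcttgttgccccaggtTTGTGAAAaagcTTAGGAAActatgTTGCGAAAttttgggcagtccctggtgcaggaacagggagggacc
The PU.1 core began 30 bases before the start of C1qb, and it was also present in the windows of C1qc and Cd59a and in 19.0% of 32851 promoters. The C3 window held 3 non-overlapping matches to the C/EBP letters, which were also present in the windows of C1qc and C5ar1 and in 30.0% of promoters. A promoter was listed for 6 of the 9 genes.

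Libraries held 14823292 to 25579826 counts on genes, so that by counting error alone a count of 0 allows up to 0.117 to 0.205 CPM (counts relative to library size after scaling by trimmed mean of M values, TMM). The Uninjured Control libraries had similar totals but counts on 12356 and 12732 genes, against 16399 to 19338 in the SCI mice, and each lacked counts for defining genes: Tmem119, P2ry12 and Trem2 were at 0 in replicate 2 and Cd68 at 0 in replicate 1. A 0 in a control library is therefore not read below as absence. Genes at 0 in 1 control could be well above the limit in the other, as with Tmem119 (126 and 0 counts) and S100a9 (0 and 560). Multiples of the limit given below are thus not lower bounds on a fold change. The controls also held liver transcripts. The summed level of 6 liver markers was 4007 CPM in replicate 1 and 673 CPM in replicate 2, against at most 5.49 CPM in any SCI mouse. The summed CPM of 8 microglia or macrophage markers was 701 to 942 in SCI + Vehicle, 844 to 1140 in SCI + Atorvastatin, and 114 and 130 in the controls.

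Most of the complement genes were upregulated 6 wk after SCI. With vehicle, 7 of the 9 genes were called higher than in the Uninjured Control group, at an adjusted p below 0.05 and a change above 1.25-fold (edgeR quasi-likelihood test), and none lower. Of all 16091 genes tested, 29.4% were called, 19.8% as higher. With atorvastatin, 8 of 9 were called higher than in the controls and none lower, where 38.9% of all genes were called, 24.9% as higher. Both comparisons use the same 2 controls. In each comparison the levels of the genes called higher did not overlap between the SCI group and the controls, as also held for 24.8% and 29.8% of all genes. All 9 genes passed the filter on low values (mean TPM, transcript abundance normalized for gene length and depth, above 1 in at least 1 group), but C3ar1 and C5ar1 passed through the SCI groups alone and so had to differ. Of the 7 genes that also exceeded 1 TPM in the controls, 5 were called higher with vehicle and 6 with atorvastatin. The bulk data cannot tell more cells of a type from more RNA per cell.

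**Figure D1:**
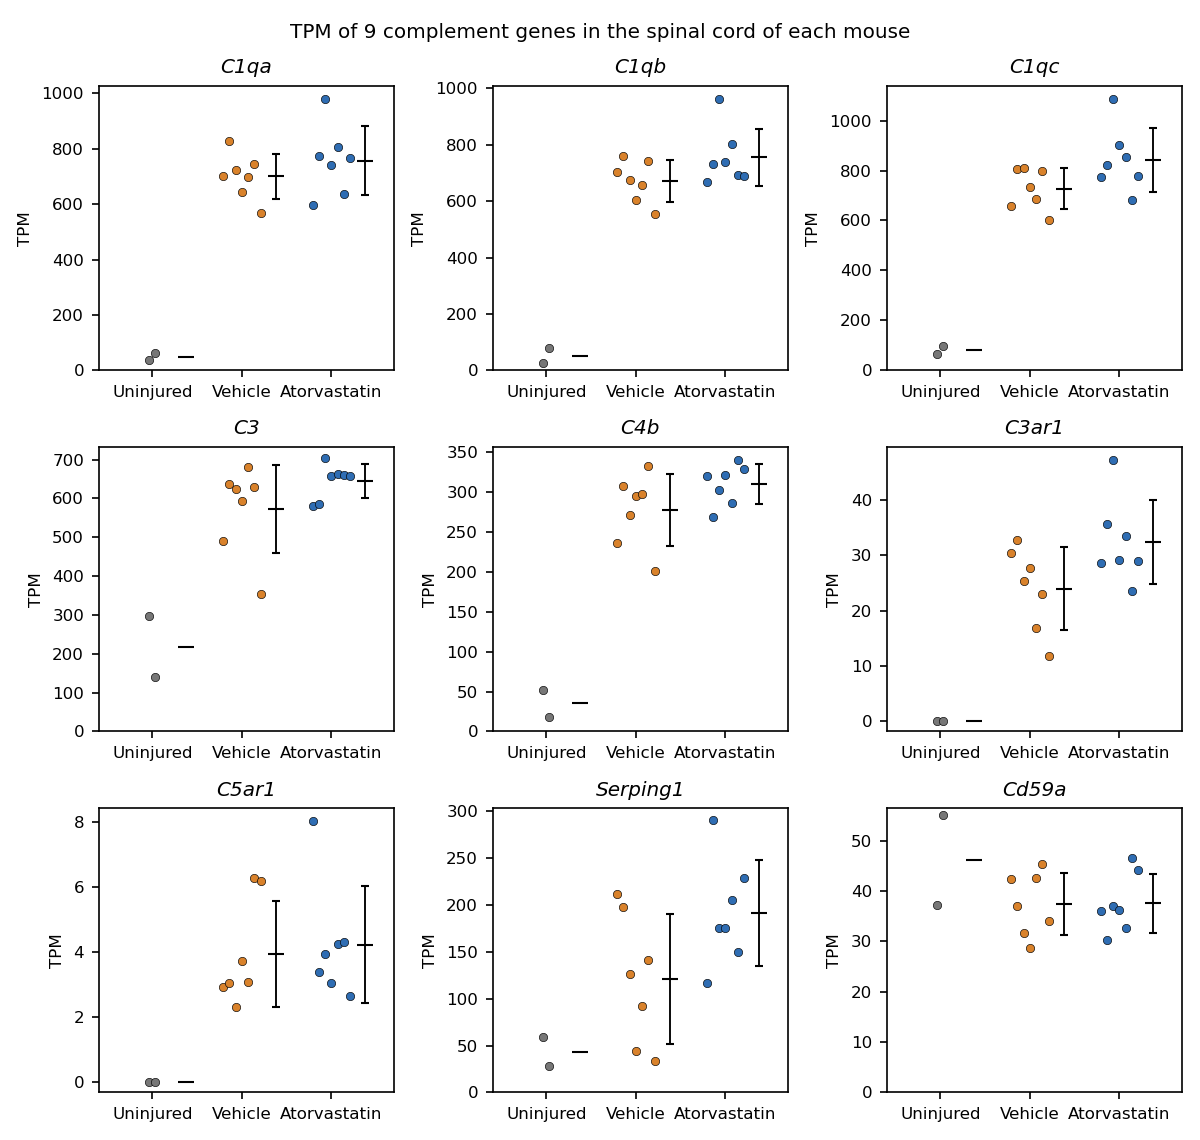
TPM (transcript abundance, axes from 0) of the 9 complement genes in each mouse, 1 point per mouse by group, with the mean ± SD for the SCI groups (n = 7 each) and the mean alone for the 2 controls. C1qa, C1qb, C1qc, C3, C4b, C3ar1 and C5ar1 are higher in all 14 SCI mice than in both controls, while Cd59a overlaps between the groups.

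The order of the genes by TPM differed between SCI and control cords. In both SCI groups the order of the mean was C1qc, C1qa, C1qb, C3, C4b, Serping1, Cd59a, C3ar1 and C5ar1. C3 stood above C4b, and C3ar1 above C5ar1, without overlap in each SCI group, and Serping1 stood above Cd59a without overlap with atorvastatin. All other neighbours in this order overlapped. With 700.8 TPM in SCI + Vehicle, C1qa was above 99.3% of the genes in the tables. In the controls C3 came first and was above the C1q chains in both mice, with no other ordered pair of neighbours that differed without overlap except C4b above the receptors.

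The chains of C1q, the recognition molecule of the classical pathway, were 6.92-fold to 12.6-fold higher after SCI. C1qa was at 36.4 and 61.6 TPM in the controls, at 567.6 to 827 (median 702) in SCI + Vehicle and at 598 to 979 (median 765) in SCI + Atorvastatin. The lowest SCI mouse was thus far above the higher control. On counts, C1qa was 9.03-fold higher in SCI + Vehicle (95% interval 6.08 to 13.4, adjusted p = 4.1e-05) and 9.92-fold higher in SCI + Atorvastatin (6.07 to 16.2, adjusted p = 5.24e-05). C1qb was at 24.6 and 79.9 TPM in the controls, at 553 to 760 (median 674) with vehicle and at 669.8 to 962 (median 734) with atorvastatin. As a ratio, its controls differed from each other more than its 7 vehicle mice did, and the groups remained apart. C1qb was 11.0-fold (7.90 to 15.4, adjusted p = 1.8e-05) and 12.6-fold (8.11 to 19.5, adjusted p = 1.94e-05) higher. C1qc was at 66.1 and 96.1 TPM in the controls, at 602 to 811 (median 734) with vehicle and at 681 to 1087 (median 822) with atorvastatin. The C1qc groups were again apart, with the smallest fold change of the chains and the highest controls. C1qc was 6.92-fold (5.39 to 8.90, adjusted p = 1.64e-05) and 8.22-fold (5.86 to 11.5, adjusted p = 1.5e-05) higher. The size depended on the unit and on the control: in TPM the ratio of means for C1qa was 14.3 with vehicle and 15.4 with atorvastatin, and on the log2 scale its difference from counts with vehicle was 2.76 without control replicate 1 and 3.76 without replicate 2. With a separate quality weight for each group in voom, which called 0.827% and 0.907% of all genes in either direction, C1qa, C1qb, C1qc and C4b kept their call with vehicle and C4b alone did with atorvastatin.

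The C1q chains, which assemble in equal numbers into the C1q protein, were close to parity in TPM after SCI. Over the 14 SCI mice the ratio of C1qb to C1qa was 0.982 ± 0.0619 (SD, range 0.903 to 1.12) and that of C1qc to C1qa was 1.08 ± 0.0950 (range 0.936 to 1.296). In the controls C1qc exceeded C1qa 1.81-fold and 1.56-fold, and the ratio of C1qb to C1qa was 0.674 and 1.297 from 303 counts in replicate 1 and more in replicate 2. In TPM the controls thus lay outside the SCI range for both ratios, but the unit changed this for replicate 2. In CPM its ratio of C1qc to C1qa was 1.05, inside the SCI range of 0.912 to 1.22, and its ratio of C1qb to C1qa was 0.700, below the SCI range of 0.862 to 1.01 instead of above it. No test was made on 2 mice. The summed TPM of the chains was 1722 to 3028 in the SCI mice and 127 and 238 in the controls.

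**Figure D2:**
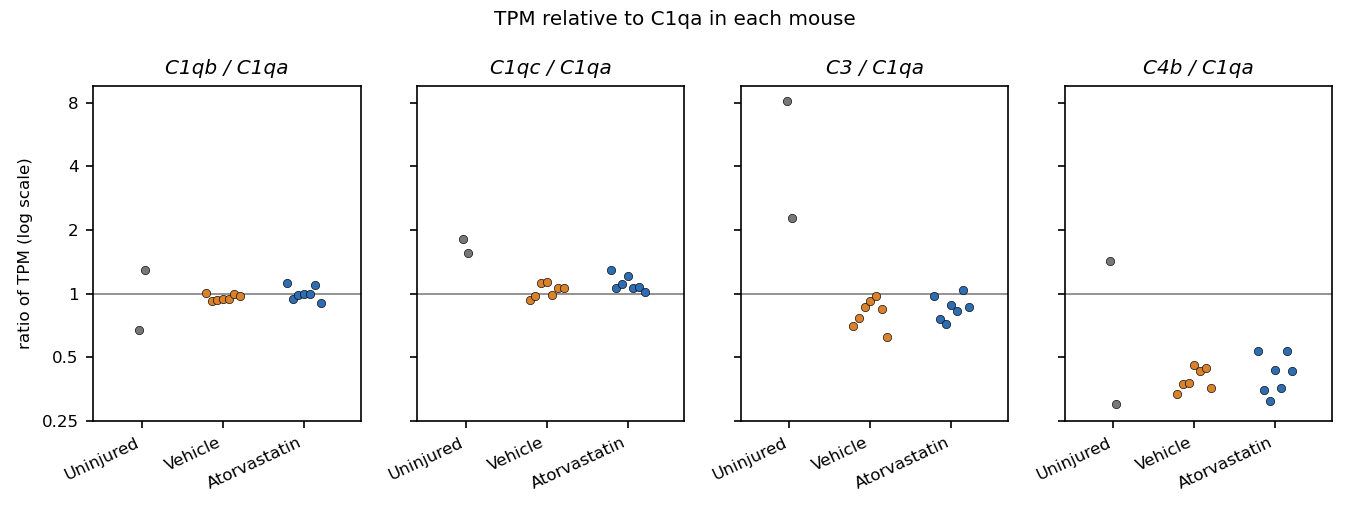
Ratio of TPM to that of C1qa in each mouse (log axis, line at 1), 1 point per mouse by group, for C1qb, C1qc, C3 and C4b. In the SCI mice the C1q chains lie between 0.903 and 1.296, and C3 to C1qa is 0.622 to 1.04, whereas C3 to C1qa is 8.15 and 2.27 in the 2 controls.

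The chains also varied together among mice. After centring each SCI group on its mean, the Pearson correlation of log2 CPM with C1qa over the 14 SCI mice was 0.95 for C1qb, the gene most like C1qa of all those tested, and 0.90 for C1qc, the gene ranked 8. The other genes of the top 5 were Zfp72 (0.94, a zinc finger gene with at most 130 counts in any library), Ftl1 (0.92, the ferritin light chain), Ctsz (0.92, the lysosomal protease cathepsin Z) and Rarres2 (0.91, which encodes the chemoattractant chemerin). C3ar1 followed at 0.75, C3 and Serping1 both at 0.60, C4b at 0.24, Cd59a at -0.066 and C5ar1 at -0.23. The points share library and depth, and these values are descriptive.

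C3, the protein on which the complement pathways converge, was already abundant in the controls and had a smaller fold change. C3 was at 297 and 139.8 TPM in the controls, at 352.8 to 681 (median 624) in SCI + Vehicle and at 581 to 704 (median 659) in SCI + Atorvastatin. The lowest vehicle mouse, replicate 7, was close to the higher control, while the atorvastatin range was narrower, which was not tested. C3 was 2.16-fold higher with vehicle (95% interval 1.37 to 3.43, adjusted p = 0.0181) and 2.49-fold higher with atorvastatin (1.63 to 3.79, adjusted p = 0.00366). C4b, which supplies the C4 cleaved by the C1 complex, was at 51.8 and 18.6 TPM in the controls, at 202 to 333 (median 296) with vehicle and at 269 to 341 (median 320.2) with atorvastatin. No SCI mouse came near a control. C4b was 6.45-fold (4.12 to 10.1, adjusted p = 1.52e-04) and 7.39-fold (4.89 to 11.2, adjusted p = 4.33e-05) higher. The near-identical C4a had 1 to 242 counts in the SCI mice and 0 in the controls, so reads of the pair may have been split in the counting.

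Most astrocyte markers were higher after SCI as well. The summed CPM of 5 of them was 2868 and 3515 in the controls, 8242 to 9387 in SCI + Vehicle and 8667 to 9990 in SCI + Atorvastatin. Gfap made up most of this sum, with a mean of 6645 CPM in SCI + Vehicle. Of the 5, Gfap, Aqp4, Slc1a3 and Gja1 were called higher in both comparisons. Aldh1l1 was called in neither and went the other way with vehicle, at a log2 fold change of -0.57 (adjusted p = 0.0992). The part of astrocytes in the C3 and C4b levels was not tested.

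The controls differed for both genes in the direction of the liver markers. Control replicate 1, with the higher liver sum, had the higher level of C3, C4b and Serping1, all of which the liver makes, and the lower level of every C1q chain. Without that mouse the log2 fold change of C3 was 1.88 with vehicle and 2.08 with atorvastatin, and without replicate 2 it was 0.61 and 0.81. For C4b the same values were 3.37 and 3.57, and 2.23 and 2.41. The part of liver transcripts in the C3 and C4b levels of the controls was not tested.

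The anaphylatoxin receptors had no counts in either control. C3ar1, the receptor for C3a on microglia and other myeloid cells, was at 11.7 to 32.7 TPM (median 25.4) in SCI + Vehicle and at 23.65 to 47.3 (median 29.2) in SCI + Atorvastatin, from 460 to 1270 and 767 to 1637 counts. Every SCI mouse thus had at least 460 counts against none. The mean of C3ar1 was 262 (vehicle) and 358 (atorvastatin) times the limit of 3 counts in control replicate 1 (0.151 CPM). C5ar1, a receptor for C5a on phagocytes, was at 2.30 to 6.28 TPM (median 3.08) with vehicle and at 2.65 to 8.03 (median 3.93) with atorvastatin, from 55 to 158 and 60 to 176 counts. It was the gene with the lowest level of the 9 in both SCI groups. The mean of C5ar1 was 28.1 and 27.1 times the same limit. The filter fixed the direction of both receptors, so no p-value is given for them, and neither kept its call under voom with group quality weights in either comparison.

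Of the regulators, Serping1 was called higher with atorvastatin alone and Cd59a in neither comparison. Serping1, which encodes the C1 inhibitor, was at 59.4 and 27.9 TPM in the controls, at 33.2 to 212 (median 126) in SCI + Vehicle and at 117 to 291 (median 176) in SCI + Atorvastatin. Vehicle replicates 4 and 7, at 44.3 and 33.2 TPM, lay between the controls, while all atorvastatin mice lay above both. Serping1 was 2.27-fold higher with vehicle, which did not pass the test (95% interval 0.832 to 6.20, adjusted p = 0.203), and 3.68-fold higher with atorvastatin (2.04 to 6.62, adjusted p = 0.00322). Cd59a, the inhibitor of the lytic complex, was at 37.2 and 55.15 TPM in the controls, at 28.7 to 45.3 (median 37.1) with vehicle and at 30.2 to 46.6 (median 36.3) with atorvastatin. These ranges overlapped. The Cd59a ratio was 0.753 with vehicle (0.550 to 1.03, adjusted p = 0.159) and 0.814 with atorvastatin (0.625 to 1.06, adjusted p = 0.201). Without control replicate 1 the log2 fold changes of Cd59a were -0.58 and -0.47, and without replicate 2 they were -0.21 and -0.11. Its paralog Cd59b had 0 to 75 counts in the SCI mice.

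The lowest and the highest Serping1 levels after SCI were in mice with the lowest and the highest fibroblast markers. The summed CPM of Col1a1, Col1a2, Col3a1, Dcn and Lum was 127 to 1056 (median 588) in SCI + Vehicle, 613 to 1853 (median 1071) in SCI + Atorvastatin, and 249 and 243 in the controls. Vehicle replicates 4 and 7 had the lowest fibroblast sums of all 16 mice, at 164 and 127 CPM, and the lowest Serping1 of the SCI mice, at 32.6 and 23.0 CPM. Atorvastatin replicate 2 had the highest of both, at 1853 and 211 CPM. The low values of the vehicle mice were not particular to fibroblast markers. Vehicle replicates 4 and 7 also had the lowest microglia or macrophage sums of the SCI mice, at 793 and 701 CPM. Vehicle replicate 7 had the lowest sum of endothelium markers as well, at 125 CPM. Atorvastatin replicate 2 was not highest in microglia or macrophage markers, at 893 CPM against 1140 CPM in replicate 3. Within a group the order was not the same throughout: the lowest Serping1 with atorvastatin (78.6 CPM, replicate 1) was not in the mouse with the lowest fibroblast sum (613 CPM, replicate 4), and the highest with vehicle (153 CPM, replicate 1) was not in the mouse with the highest sum (1056 CPM, replicate 2). Of the 5 fibroblast markers, 4 were called higher than in the controls with atorvastatin and 0 with vehicle, against 24.9% and 19.8% of all genes. In the direct comparison of the treatments, 0 of the 5 were called. The part of fibroblasts or of other cells in the Serping1 level was not tested.

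**Figure D3:**
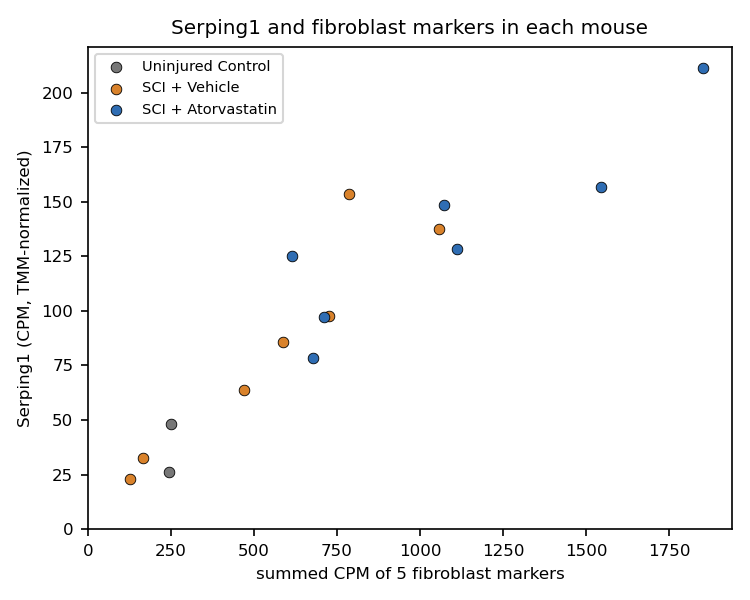
Serping1 (CPM, TMM-normalized, vertical axis) against the summed CPM of 5 fibroblast markers (horizontal axis), 1 point per mouse, coloured by group. The vehicle mice at 127 and 164 CPM of fibroblast markers have the lowest Serping1 of the SCI mice, and the atorvastatin mouse at 1853 CPM has the highest.

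**Figure D4:**
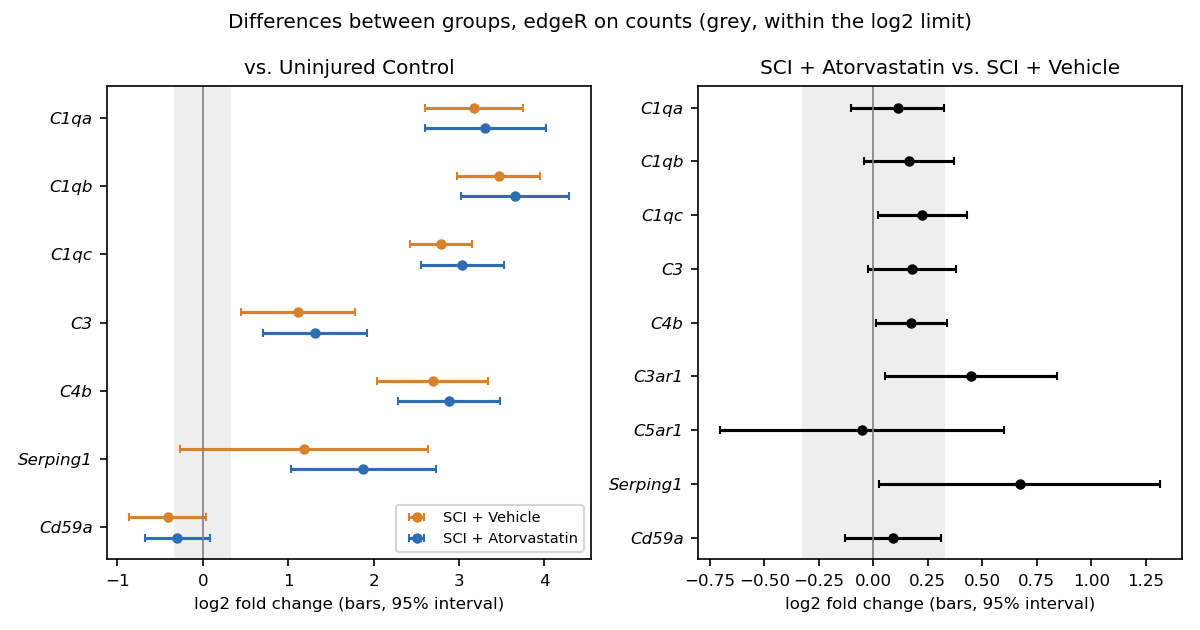
Log2 fold change with its 95% interval from edgeR on counts. Left, both SCI groups vs. the 2 Uninjured Control mice for the 7 genes with counts in the controls; right, SCI + Atorvastatin vs. SCI + Vehicle (n = 7 each) for all 9. The grey band marks changes under 1.25-fold. Intervals on the left lie clear of the band for C1qa, C1qb, C1qc, C3 and C4b in both groups and for Serping1 with atorvastatin alone. Those on the right lie close to 0 for all genes but C3ar1, C5ar1 and Serping1.

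Relative to microglia and macrophage transcripts, the C1q chains and C4b showed smaller differences, C3 and Serping1 had values below 0 in place of above it, and Cd59a lay further below 0. When the summed counts of the 8 markers, Tmem119, P2ry12, Csf1r and Cd68 among them, replaced the library size in the same edgeR test, 6 of 9 complement genes were called in each comparison with the controls, against 82.9% of all genes with vehicle and 84.8% with atorvastatin, of which most were lower on this scale (73.0% and 73.9% of all genes, with 9.94% and 10.9% higher). C1qa no longer passed, with a log2 fold change of 0.41 (95% interval -0.016 to 0.84) with vehicle and 0.38 (-0.079 to 0.83) with atorvastatin. C1qc was at 0.0089 (-0.30 to 0.31) and 0.085 (-0.21 to 0.38). C1qb was higher, at 0.70 (adjusted p = 0.00311) and 0.71 (adjusted p = 0.00272), although with vehicle it was at 0.44 without control replicate 1. These values for the C1q chains rested on 2 controls that differed from each other. C1qa was at 0.87 and 0.84 without control replicate 2, and at 0.066 and 0.029 without replicate 1. With the 4 homeostatic microglia markers alone as the scale, C1qa was called higher, at 0.52 with vehicle (adjusted p = 0.0166) and 0.52 with atorvastatin (adjusted p = 0.0372).

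C4b was near the markers as well, at -0.14 (95% interval -0.73 to 0.44) with vehicle and -0.096 (-0.69 to 0.49) with atorvastatin, but the sign followed the control. It was at 0.68 and 0.72 without control replicate 1, and at -0.66 and -0.62 without replicate 2. C3 rose less than the markers, with log2 values of -1.73 (adjusted p = 1.03e-04) and -1.68 (adjusted p = 7.16e-05) relative to them. Serping1 was at -1.69 (adjusted p = 0.0103) and -1.10 (adjusted p = 0.00986). Its size depended on the control, at -1.06 and -0.47 without control replicate 1, and at -2.13 and -1.54 without replicate 2. Cd59a was at -3.18 (adjusted p = 5.96e-08) and -3.23 (adjusted p = 1.56e-08). C3ar1 and C5ar1 remained higher on this scale, as genes with no control counts.

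**Figure D5:**
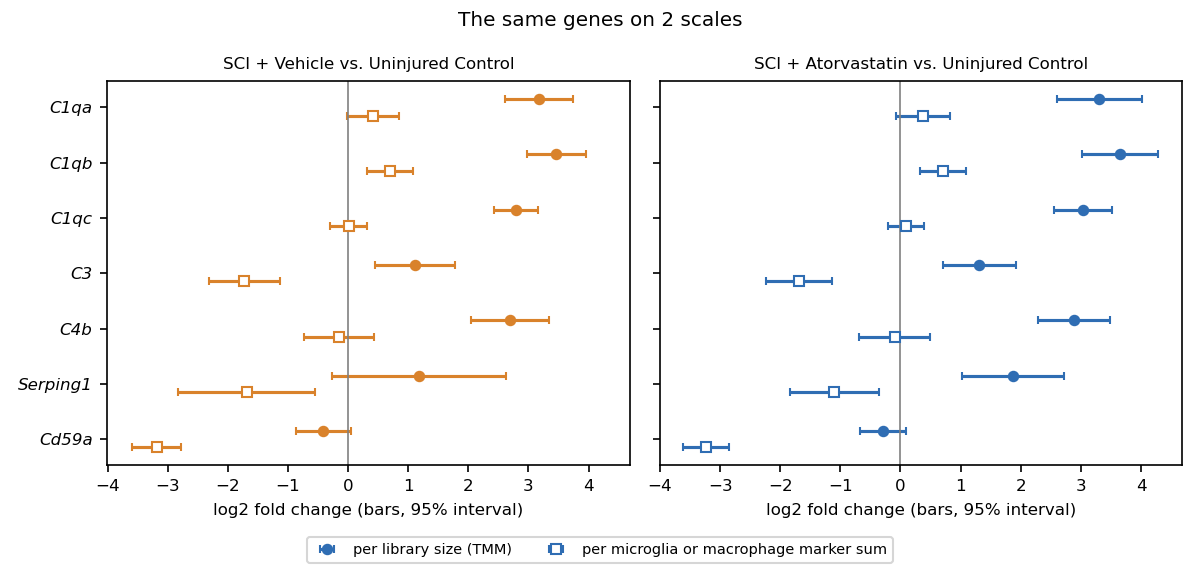
Log2 fold change with 95% interval of 7 complement genes vs. Uninjured Control, per library size (filled circles) and per summed counts of 8 microglia or macrophage markers (open squares), with vehicle on the left and atorvastatin on the right. Relative to the markers, C1qc and C4b lie at 0 within their intervals and C3, Serping1 and Cd59a lie below 0.

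Between the treatments, no complement gene was called. SCI + Atorvastatin vs. SCI + Vehicle gave 0 of 9 at an unadjusted p below 0.001 and the same limit on size, and 0.106% of all genes passed. All 9 genes overlapped between the treatments, and 0.0559% of all genes were higher and 0.0311% lower without overlap. Values of 8 of the 9 were higher with atorvastatin, C5ar1 being the exception, and the median log2 difference was 0.17 over the 9 and -0.0014 over all genes tested. At an unadjusted p below 0.05 there were 4 of 9, all higher, and 7.03% of all genes passed that limit, 4.02% as higher. These were C1qc, C3ar1, C4b and Serping1, with adjusted p-values of 0.693, 0.690, 0.693 and 0.705. No gene of the 9 was called by DESeq2, limma or voom, or without any 1 mouse.

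The sizes that remain possible were narrow for the C1q chains, C3, C4b and Cd59a. The atorvastatin to vehicle ratio of C1qa was 1.08 (95% interval 0.932 to 1.25), that of C1qb 1.12 (0.972 to 1.29) and that of C1qc 1.17 (1.01 to 1.34). C3 was at 1.13 (0.983 to 1.3), C4b at 1.13 (1.01 to 1.26) and Cd59a at 1.06 (0.914 to 1.24). The receptors and Serping1 were less well bounded, with C3ar1 at 1.37 (1.04 to 1.79), C5ar1 at 0.965 (0.614 to 1.52) and Serping1 at 1.59 (1.02 to 2.49). Differences of the C1q chains shrank with the marker sum as the scale, to log2 values of -0.037 for C1qa, 0.014 for C1qb and 0.076 for C1qc, and none of the 9 was called on it, as for all but 0.0435% of genes. Without vehicle replicate 7, which had the lowest C3, C4b, C3ar1 and Serping1 of its group, the log2 differences were 0.10 for C3, 0.12 for C4b and 0.50 for Serping1.

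Other genes of the complement system were taken from a list of 40, of which 31 passed the filter. The filter fixed the direction of 12 of these, as 6 passed through the SCI groups alone and 6 through the controls alone. Of the other 19, 5 were higher and 2 lower with vehicle than in the controls, where 19.8% of all genes were higher and 1536 of the 16091 lower. With atorvastatin 7 were higher and 2 lower, where 24.9% of all genes were higher and 2256 of the 16091 lower. Of the 6 genes carried by the SCI groups, 4 and 5 were called, and of the 6 carried by the controls, 4 and 6. None was called between the treatments.

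Among receptors, 3 of 5 with vehicle and 5 of 5 with atorvastatin were higher, against 19.8% and 24.9% of all genes. Of these, Itgax and C5ar2 passed the filter through the SCI groups alone, which fixed their direction. Of the rest, Itgb2 alone was called with vehicle, and Itgb2, Itgam and Cd93 with atorvastatin. Itgax, a subunit of complement receptor 4, had 515 to 1638 counts in the SCI mice and 0 in both controls. Its mean was 328 (vehicle) and 382 (atorvastatin) times the limit. Itgb2, the shared integrin beta chain of complement receptors 3 and 4, had 1623 to 3510 counts against 91 and 0. C5ar2, the second C5a receptor, had means 30.1 and 27.1 times the limit in the controls. Itgam, the alpha chain of complement receptor 3, was called with atorvastatin (log2 fold change 2.51, adjusted p = 0.0456) and was at 2.36 with vehicle (adjusted p = 0.0651), while its controls had 25 and 1120 counts. Cd93, a phagocyte and endothelial membrane protein, was called with atorvastatin at 1.08 (adjusted p = 0.0232).

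Of the initiating genes, C1ra, a protease of the C1 complex, was higher at log2 fold changes of 4.93 and 5.39, and the scavenger receptor collectin Colec12 at 3.42 and 3.97. C1ra, like Colec11 and C6 below, passed the filter through the SCI groups alone, which fixed its direction. Colec11 was called with atorvastatin alone, where its mean was 9.31 times the limit in the controls. Among soluble and membrane regulators, Cd55, which speeds the decay of convertases, was higher at 2.07 and 2.35, and Clu, a chaperone that binds the terminal complex, at 0.79 and 0.87. Susd4 was lower at -0.67 and -0.75. C6 of the terminal pathway had 0 to 151 counts in the SCI mice and 0 in the controls, with means 14.4 and 26.5 times the limit.

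The remaining genes called lower are made by the liver, and each had more counts in control replicate 1 than in replicate 2. All of them but Cfb passed the filter through the controls alone, which fixed their direction. Mbl2 had 612 and 22 counts in the controls and 0 to 13 in the SCI mice. Hc, which encodes C5, had 853 and 22 against 0 to 75, and Cfi had 822 and 493 against 0 to 33. C8b had 405 and 0 counts in the controls against 0 to 19, C8a 170 and 0 against 0 to 36, and C4bp 192 and 0 against 0 to 32, the last pair of genes being called with atorvastatin alone. Cfb, the protease of the alternative pathway convertase, had 832 and 477 counts in the controls and 53 to 391 in the SCI mice. Its TPM was 21.5 and 0 in the controls and 0 to 9.68 in the SCI mice, so the groups overlapped in that unit, and counts and TPM may not come from the same counting step. The liver sums of the controls given above stand beside these values, and their part in them was not tested.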

How the data were processed

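Spinal cord RNA of 16 mice was prepared with a stranded total RNA kit. Per the labels, the authors used FastQC 0.12.1, Trimmomatic 0.38, STAR 2.5.4b and RSEM 1.3.1 with mm10. They deposited whole-number counts per gene without normalization, and TPM normalized for gene length, for 24411 symbols. The step that made whole-number counts and its use of strand are not given in the sources used here. Groups came from the labels.

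Tests on counts covered the 16091 genes whose mean TPM exceeded 1 in 1 or more groups. The quasi-likelihood test of edgeR 4.0.16 (R 4.3.3) was fitted to the 2 groups compared, after TMM scaling, with Benjamini-Hochberg adjustment over all genes. Against the controls, genes were called at an adjusted p below 0.05, and between treatments at an unadjusted p below 0.001, each with a change above 1.25-fold. Alternatives used DESeq2 1.42.0, edgeR with DESeq2 size factors, a joint fit of the 3 groups, other filters, limma 3.58.1 on log2(TPM + 1), voom with a quality weight per group, the replicate number as a block, parts of the marker list, and each mouse left out in turn. The lone control was then assumed to vary like the SCI mice. Methods were tested on simulated data with the same spread for every gene and large changes in well-counted genes only. That setting does not cover the control libraries, in which many genes lacked counts. Limits for a count of 0 (3 counts) cover counting error only. Positions are from GENCODE M21, promoters from RefSeq, and figures from matplotlib 3.10.9.

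The 9 genes, the list of other complement genes, the marker lists and the tests were chosen with earlier results of these data known. The text names the 9 genes, the other complement genes called in at least 1 comparison, markers called or at 0, and the 5 genes most like C1qa. Some genes of these lists count in the totals and sums but are not reported here by name. C4a, Cd59b, Aldh1l1, the rank of C1qc and the likeness of the other complement genes were added after their values were seen.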

Additional observations from a re-analysis of the deposited data

Results flagged for a closer look

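In the SCI + Vehicle group, C3 of replicate 7 stood apart at 787 CPM (TMM-normalized), with the next lowest vehicle mouse at 1118 CPM. The gap was 0.618 of the group's range, above Dixon's 95% critical value for 7 mice. It was the 1 flag among 24 sets of 7 mice, and chance flags about 5% of such sets. The same mouse had the lowest sum of microglia or macrophage markers of its group (701 CPM), the lowest sum of fibroblast markers (127 CPM), the highest sum of oligodendrocyte markers (18101 CPM) and counts on the fewest genes of the SCI mice (16399). Their part in the C3 level was not tested. Without this mouse the log2 difference of C3 between the treatments was 0.10, against 0.18 with it.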

How the results depend on the processing

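With 2 controls, each comparison against them rests on the spread of the SCI mice. Of the 9 complement genes, 7 were called with vehicle and 8 with atorvastatin against the controls, where 29.4% and 38.9% of all genes were called. The same numbers were called when each SCI mouse was left out in turn. Calls are not counted for fits that leave 1 control. Voom with group quality weights called 4 and 1, with 0.827% and 0.907% of all genes. The replicate block called 3 and 0, with 0.0994% and 0.0% of all genes. The replicate numbers did not pair the mice: same-numbered treated and vehicle mice correlated at -0.15 to 0.087 in their deviations, and 0 of 7 correlated best with their own number. Vehicle and control mice correlated at 0.019 to 0.038, 2 of 2 best with their own number, and atorvastatin and control mice at -0.014 to -0.0063, 0 of 2. Of the other complement genes, 15 with vehicle and 20 with atorvastatin became 12 to 14 and 17 to 18 without 1 SCI mouse. When each condition had to exceed a mean TPM of 1, they became 7 and 8 of the 18 left, with 19.1% and 29.5% of all genes. Under voom they became 1 and 2, and under the block 1 and 0. Between treatments 0 of the 9 was called under any setting, and 0 to 1 of the other genes without 1 mouse (1 without SCI + Vehicle replicate 1). Relative to the marker sum, 6 and 6 genes were called, and the same numbers without 1 SCI mouse. On this scale the block called 3 and 3, with 47.3% and 46.9% of all genes, and 0 were called between treatments without any 1 mouse. Signs changed for values near 0. Between treatments C5ar1 was at 0.086 by limma on log2(TPM + 1) and -0.25 to 0.083 without 1 mouse. Relative to the markers, between treatments, without 1 mouse, C1qa was at -0.062 to 0.0031, C1qb at -0.018 to 0.041 (-0.0094 with Csf1r, Aif1, Trem2 and Cd68 alone as the scale), C3 at -0.0028 to 0.074 and Cd59a at -0.086 to 0.0060. With those 4 markers C1qc was at -0.067 with vehicle and -0.016 with atorvastatin vs. the controls. C1qc with vehicle was at -0.040 under the block and -0.048 to 0.069 without 1 mouse. C4b with atorvastatin was at 0.049 under the block, and C4b without 1 mouse was at -0.66 to 0.68 with vehicle and -0.62 to 0.72 with atorvastatin. The causes were not tested.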
